A study of Mus musculus with 18 samples.

Results

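The genes of the cytosolic ribosomal proteins were taken from the count table of Prmt1 knockout and control crypts as every row whose symbol has the form Rpl or Rps followed by a protein number and its usual suffix, or Rplp0 to Rplp2 or Rpsa. This gave 89 genes of 55335 in the table. They comprised 46 genes of 60S subunit proteins, 31 genes of 40S subunit proteins, 6 paralogs whose proteins resemble a standard subunit and 6 retrocopies, which GENCODE annotates as pseudogenes. Pseudogenes with a -ps symbol and the Rps6k kinases were not included, and neither were ribosomal protein genes whose symbols have another form, such as Fau and Rpl36al.

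RNA-Seq was performed on purified small intestinal crypts of mice aged 8 to 12 weeks. KO mice were Prmt1 fl/fl;Vil-CreERT2, so that the villin promoter limits the tamoxifen-activated Cre to the epithelium, and WT mice were Prmt1 fl/fl littermates without Cre. Tamoxifen was given to both genotypes at 2 mg per dose, as 2 doses in the day 2 groups and 5 doses in the day 7 and day 14 groups. There were 3 mice and 3 libraries per genotype and day, 6 groups and 18 libraries in all, from total RNA depleted of ribosomal RNA.

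The eukaryotic ribosome is built from a large 60S and a small 40S subunit, each a scaffold of ribosomal RNA with one copy of nearly every ribosomal protein, and cells make these proteins in matched amounts. Their mRNAs mostly begin with a C followed by a run of pyrimidines, the terminal oligopyrimidine (TOP) tract, through which mTORC1 and LARP1 control their stability and translation together. Crypts, which hold the dividing stem and progenitor cells of the gut lining, have a high demand for ribosomes. PRMT1, which places most asymmetric dimethylarginine in mammalian cells, modifies many RNA-binding proteins.

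Prmt1 itself, which checks the labels, was present at 13.1 to 17.4 CPM in the 9 KO libraries and 20.2 to 30.6 CPM in the 9 WT libraries, so the genotypes did not overlap. CPM is the count of a gene relative to the library total after TMM scaling of the libraries. The total count per library was 12844642 to 31493484. Summed over 10 markers each, stem cell genes reached 1901 to 2527 CPM in day 7 WT and 540 to 1233 CPM in day 7 KO, and Paneth cell genes 11413 to 19001 and 1824 to 5124 CPM. Of these lists 8 of 10 and 10 of 10 genes were lower in day 7 KO by edgeR, as were 10.2% of all genes, and 2 of 10 each at day 14, as were 4.69% of all genes, with summed levels that again did not overlap. The 10 enteroendocrine genes were all higher at both days, as were 7.11% and 3.23% of all genes, at 294 to 317 CPM in WT and 662 to 827 CPM in KO at day 7 and 254 to 334 and 785 to 938 CPM at day 14. Summed levels also did not overlap for enterocyte genes, higher in day 7 KO (14475 to 18042 CPM in WT, 20182 to 31195 CPM in KO), tuft cell genes, lower in day 7 KO (75.6 to 88.9 and 31.4 to 71.0 CPM), and goblet cell and proliferation genes, lower in day 14 KO (13257 to 13357 and 10820 to 12763 CPM, 1268 to 1610 and 1052 to 1205 CPM). Those of immune and stromal genes overlapped on each day. Calls within the enterocyte list went both ways at day 7. Fabp1 (log2 fold change 1.55, adjusted p 0.0129 by edgeR) and Fabp2 (1.22, adjusted p 0.0387) were higher in KO, and Lct (-1.42, adjusted p 0.0486) was lower. In bulk RNA fewer cells of a type and less RNA per cell cannot be told apart. The part of these lists in the values below was not tested.

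RefSeq promoter windows (GRCm38.p6) were found for 64 of the 89 genes. They are shown for 9 of the genes named in the results below, at the first start listed, as 60 bases before and 20 bases from the annotated start, with the longest pyrimidine run that begins with C within 20 bases of the start in capitals.
Rpl35 (chr2:39005112-39005191, minus strand): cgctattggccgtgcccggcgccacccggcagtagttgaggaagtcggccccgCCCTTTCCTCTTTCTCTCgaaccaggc
Rpl31 (chr1:39367791-39367870, plus strand): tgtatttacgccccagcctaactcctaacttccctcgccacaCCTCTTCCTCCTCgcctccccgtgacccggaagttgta
Rps27 (chr3:90213629-90213708, minus strand): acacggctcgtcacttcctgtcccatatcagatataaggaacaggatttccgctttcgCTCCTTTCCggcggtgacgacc
Rps27l (chr9:66946026-66946105, plus strand): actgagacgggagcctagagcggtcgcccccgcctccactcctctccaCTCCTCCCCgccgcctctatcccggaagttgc
Rpl22 (chr4:152325666-152325745, plus strand): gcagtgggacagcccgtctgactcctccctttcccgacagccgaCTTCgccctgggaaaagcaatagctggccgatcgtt
Rpl22l1 (chr3:28805448-28805527, plus strand): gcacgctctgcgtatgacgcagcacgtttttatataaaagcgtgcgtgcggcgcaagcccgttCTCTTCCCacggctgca
Rplp0 (chr5:115559407-115559486, plus strand): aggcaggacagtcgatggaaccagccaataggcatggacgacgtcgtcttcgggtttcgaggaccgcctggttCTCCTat
Rps16 (chr7:28350629-28350708, plus strand): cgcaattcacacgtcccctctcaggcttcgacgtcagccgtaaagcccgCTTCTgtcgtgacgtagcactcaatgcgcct
Rps3a1 (chr3:86142649-86142728, minus strand): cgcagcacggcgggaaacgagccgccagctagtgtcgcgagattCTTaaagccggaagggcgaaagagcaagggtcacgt
The run was 18 bases long in Rpl35, 13 in Rpl31 and 9 in Rps27 and Rps27l, and 3 to 5 bases long in Rpl22, Rplp0, Rps16 and Rps3a1. At the second annotated start of Rps27l it was 4 bases long, and at that of Rpl22 it was 5. A run of at least 8 bases was found in 29 of 67 promoters of 60S and 40S protein genes (43.3%), compared with 12.6% of all 32851 promoters. The motif CCGGAAG, on either strand within the 300 bases of each window, was found in 25 of the 67 (37.3%) and in 8.86% of all promoters. CACGTG was present in 11.9% against 7.15%, TATAAA in 8.96% against 13.6% and CCAAT in 31.3% against 37.4%. These are matches of letters in a window of an annotated start, not measured start sites or bound sites. Of the 77 standard subunit genes, which lie on 19 chromosomes, 30 contain at least 1 annotated small nucleolar RNA gene.

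The 89 genes together accounted for between 1.26% and 2.68% of a library's counts. The share was 2.33% ± 0.257 (SD, n = 3) in day 2 WT, 2.30% ± 0.193 in day 2 KO, 2.11% ± 0.508 in day 7 WT, 1.76% ± 0.438 in day 7 KO, 2.03% ± 0.417 in day 14 WT and 1.80% ± 0.0463 in day 14 KO. KO and WT overlapped on each day. The lowest library was replicate 3 of day 7 KO at 1.26%, followed by replicate 1 of day 7 WT at 1.69%, and the highest was replicate 2 of day 7 WT at 2.68%. On each day the means of KO and WT lay closer together than 1 SD of the WT libraries.

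**Figure D1:**
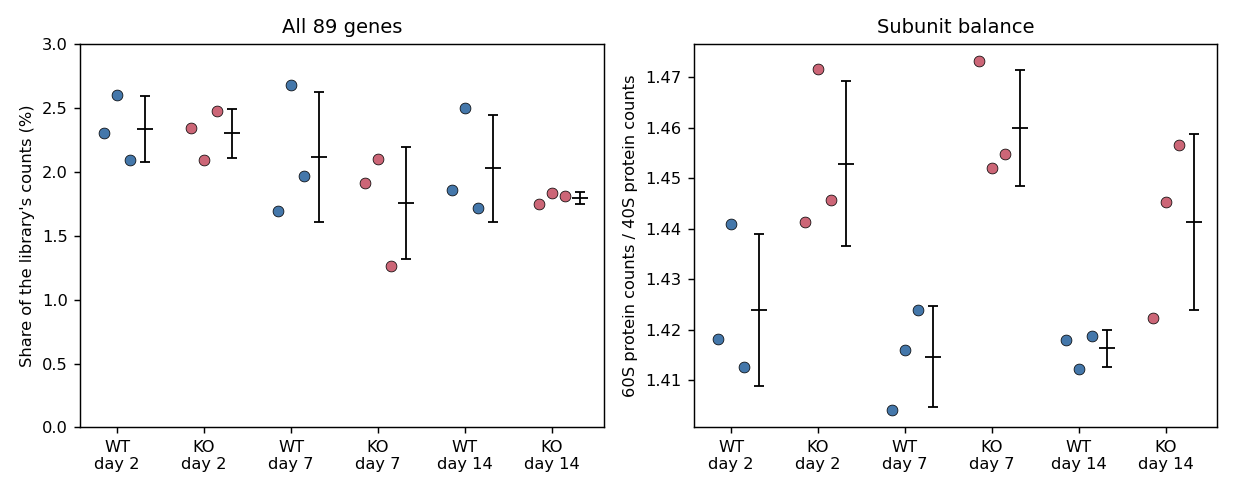
Share of each library's counts held by the 89 ribosomal protein genes (left, %) and counts of 60S protein genes divided by those of 40S protein genes (right; the axis does not start at 0) in the 6 groups, with each point 1 library and the bar the mean ± SD of 3. The shares of WT (blue) and KO (red) overlap on each day, while the subunit ratio is higher in KO by a few hundredths.

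Levels per length (FPKM, CPM divided by the length of the gene model in kilobases) are given as the mean of the 18 libraries. Among the 77 standard subunit genes they ranged from 27.6 in Rps15a to 863 in Rplp1, with a median of 122. Rplp1 and Rplp0 (507 FPKM), components of the P stalk that recruits elongation factors, were the highest, followed by Rps15 (375 FPKM), which lies near the decoding center. The median was 135 FPKM for 40S and 116 FPKM for 60S protein genes. The highest level was 31.2 times the lowest, between Rplp1, whose protein is present in more than one copy per ribosome, and Rps15a, whose gene model of 6270 bases enters its FPKM as the divisor.

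The paralogs were lower. Rps27l had 74.0 FPKM, Rpl22l1 25.5 FPKM and Rpl7l1 14.2 FPKM, against 146 for Rps27, 44.4 for Rpl22 and 156 for Rpl7. Rpl3l, a paralog known from striated muscle, had 0 to 4 counts per library, and Rpl10l and Rpl39l, known from the male germline, had 0 counts in every library. These 3 and the retrocopy Rps12l1, with 0 to 4 counts, did not pass the filter on low counts and were not tested. The other retrocopies ranged from 1.72 FPKM in Rpl6l to 18.5 FPKM in Rps4l. Because the counting left out every fragment that aligned to more than 1 place, the levels of near-identical copies, and of parents where the copy takes reads from them, are uncertain.

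**Figure D2:**
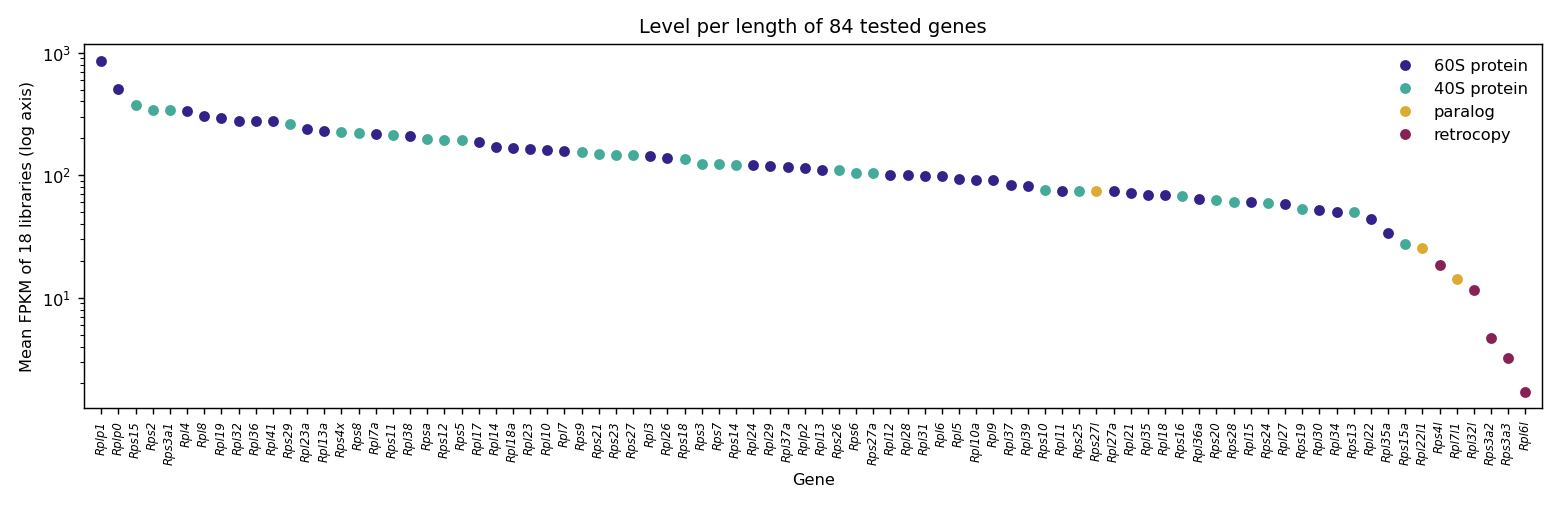
Mean FPKM over 18 libraries (log axis) of 84 of the 85 tested genes, from Rplp1 at 863 to Rpl6l at 1.72. The 60S and 40S protein genes intermingle, and the retrocopies lie at the lower end.

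The first question was whether loss of Prmt1 altered the expression of ribosomal protein genes. At day 2, none of the 85 tested genes differed between KO and WT in the quasi-likelihood test of edgeR, with p-values adjusted by Benjamini-Hochberg across the 21349 genes that were tested. In that comparison 0.0328% of all genes were called. DESeq2 called 0 as well, where it called 0.0609% of all genes, and 1 of the 85 had an unadjusted p under 0.05, as had 3.33% of all genes. The median log2 fold change of the 85 was -0.07, compared with -0.00 for all genes, and 60 of them had a negative value, as had 50.9% of all genes. Without replicate 2 of day 2 KO the median was 0.05 and 27 values were negative. The 95% interval lay within ±0.5 for 25 genes and within ±1 for 84. So a doubling or halving was outside the interval for nearly all of them, whereas smaller differences were not.

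The gene with the unadjusted p under 0.05 at day 2 was Rps16, whose protein has its tail near the P-site tRNA and which was singled out after its values were seen. Its levels were 75.1, 99.5 and 111 CPM in WT and 57.2, 67.7 and 67.0 CPM in KO, and the groups did not overlap. The log2 fold change was -0.57 (95% interval -1.0 to -0.14), with an adjusted p of 0.999 by edgeR. At day 7 its levels were 78.6, 107 and 80.1 CPM in WT and 86.9, 96.6 and 53.1 CPM in KO, and at day 14 the groups overlapped again. Besides Rps16, Rpl30, Rps20 and Rps4l were lower in every day 2 KO library than in every WT library and Rps23 was higher, 5 of 85 genes in all, while 8.16% of all genes did not overlap in that comparison (3.86% lower, 4.3% higher).

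At day 7, 1 of the 85 genes was called, whereas 17.3% of all genes were. It was the retrocopy Rps3a2, which was lower in KO, as were 10.2% of all genes. No 60S protein gene, 40S protein gene or paralog was called, with edgeR or DESeq2, and 4 of the 85 genes had an unadjusted p under 0.05, all 4 of them retrocopies, where 29.9% of all genes had one. The median log2 fold change was -0.16 for the 85 genes and 0.02 for all genes, and 69 of the 85 values were negative, as were 48.4% of all. This median rested on single libraries: it was 0.08 without replicate 3 of day 7 KO and 0.13 without replicate 2 of day 7 WT, the lowest and highest libraries of the day. Non-overlapping groups were found for 2 lower and 1 higher of the 85 genes and for 33.6% of all genes (17.7% lower, 15.9% higher). With the libraries scaled to the ribosomal protein genes themselves, 0 of the 85 were called by edgeR, with 2 at an unadjusted p under 0.05, where 4.99% of all genes were called.

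At day 14, 0 of the 85 genes were called by edgeR, 0 by DESeq2 and 0 had an unadjusted p under 0.05, whereas 7.92% of all genes were called and 21.6% had such a p. The median was -0.13, against 0.00 for all genes, and 76 of 85 values were negative, as were 49.8% of all. Without replicate 2 of day 14 WT the median was 0.06. The groups did not overlap for 11 of 85 genes, 9 of them lower in KO (Rpl8, Rpl9, Rpl11, Rpl26, Rpl35, Rpl38, Rps3a1, Rps24 and Rps27a) and 2 higher (Rpl22l1 and Rpl32l), compared with 26.5% of all genes (14.1% lower, 12.4% higher). The intervals lay within ±1 for 83 genes at day 7 and 84 at day 14, and within ±0.5 for 15 and 16.

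**Figure D3:**
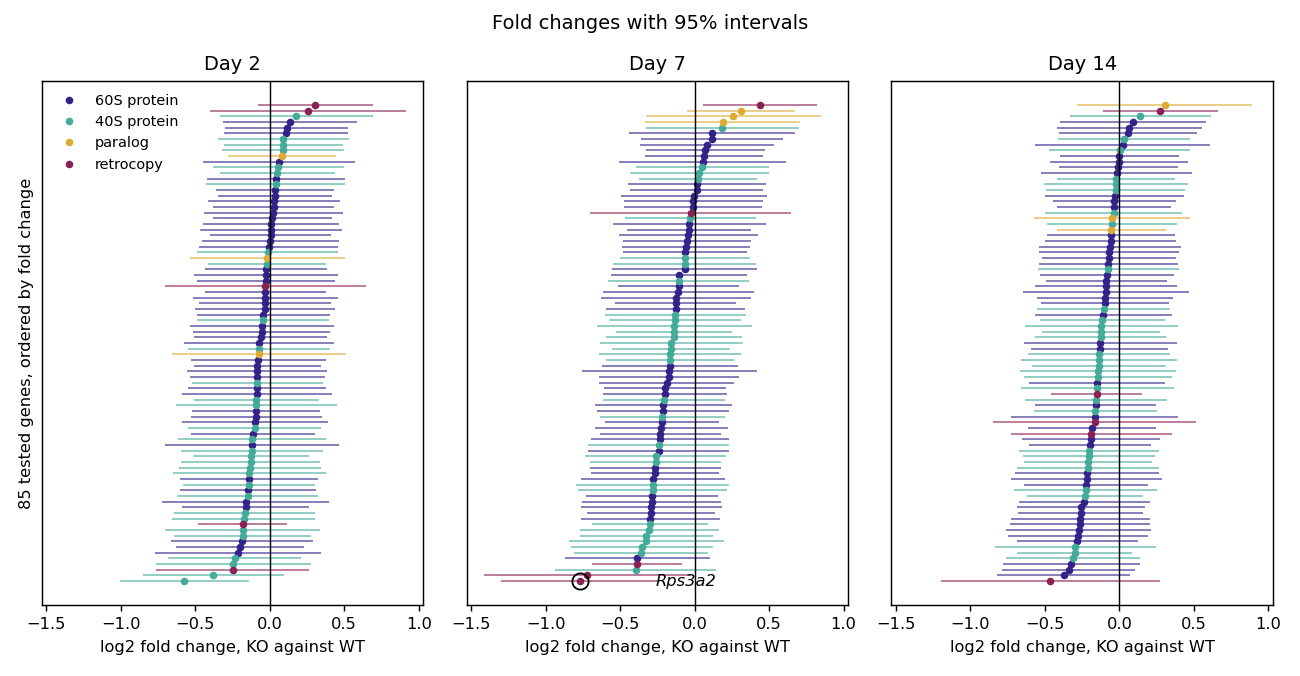
Log2 fold change of KO against WT (point) with its 95% interval (line) for the 85 tested genes on each day, ordered by value and colored by class. Only Rps3a2 at day 7 (circled) passed the test, and most points lie between 0 and -0.5 at days 7 and 14.

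Rpl5 and Rpl11, which carry the 5S RNA into the large subunit and bind MDM2 when ribosome assembly is disturbed, had log2 fold changes of -0.20 (95% interval -0.60 to 0.21) and -0.11 (-0.52 to 0.30) at day 7. Rpl11 was measured at 234, 238 and 255 CPM in day 2 WT and 252, 229 and 250 CPM in day 2 KO. Its day 14 levels were 179, 221 and 174 CPM in WT and 168, 165 and 168 CPM in KO, the latter lower in every library without passing the test (log2 fold change -0.20, adjusted p 0.629 by edgeR). Beside these, of 12 genes listed for the p53 response, 9 rose at day 7, 1 at day 2 and 0 at day 14 (0 also at an unadjusted p under 0.05). Of all genes 7.11%, 0.0281% and 3.23% rose. Among the 9 was Phlda3, a p53-induced inhibitor of AKT, with a log2 fold change of 2.07 at day 7 (adjusted p 0.00150 by edgeR). Only KO mice carried the tamoxifen-activated Cre, and the source of the rise was not tested.

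The 4 genes of the P stalk had log2 fold changes from -0.13 to -0.00 at day 7, and none was called, where 17.3% of all genes were. Rplp0, often used as a reference gene, stood at 849, 907 and 951 CPM in day 2 WT and 822, 695 and 1011 CPM in day 2 KO. Its day 7 levels were 630, 1008 and 762 CPM in WT and 911, 946 and 537 CPM in KO. At day 14 they were 685, 1097 and 689 CPM in WT and 874, 854 and 905 CPM in KO. Rplp0, Rpl6 and Rplp2 had the smallest spread of the 6 group means among the 85 genes, with an SD of 0.09 on the log2 CPM scale for each.

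Of the 6 proteins at the decoding center and mRNA channel, 3 had negative and 3 positive values at day 7. Rps2, the substrate by which the sister enzyme PRMT3 is best known, had a log2 fold change of 0.18 (95% interval -0.33 to 0.70) at day 7, and Rps3, which also acts in DNA repair, -0.30 (-0.69 to 0.09). Prmt3 itself fell by 0.57 on the log2 scale in day 7 KO (adjusted p 0.00692 by edgeR). The 8 proteins lining the peptide tunnel and its exit, among them Rpl4, Rpl17, Rpl26, Rpl31 (-0.28, 95% interval -0.76 to 0.21) and Rpl35, all had negative values at day 7, from -0.30 to -0.05, with a median of -0.22, beside 69 of the 85 genes and 48.4% of all genes. None passed the test, where 17.3% of all genes did, and the day 7 sign of the 85 genes turned on the single libraries given above.

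Rps6, the classical target of the S6 kinases, had a log2 fold change of 0.09 (95% interval -0.32 to 0.50) at day 2, -0.20 (-0.61 to 0.21) at day 7 and -0.16 (-0.57 to 0.25) at day 14. Rps19, the gene most often mutated in Diamond-Blackfan anaemia, had -0.22 (-0.64 to 0.20) at day 7. Rps27a, which encodes ubiquitin fused to a 40S protein, had -0.13 (-0.58 to 0.31), and Rpsa, the laminin receptor homolog, 0.03 (-0.44 to 0.50). Of 20 genes linked to Diamond-Blackfan anaemia, 0 were called on any day by edgeR, with 0 at an unadjusted p under 0.05 at days 2, 7 and 14, where 0.0328%, 17.3% and 7.92% of all genes were called and 3.33%, 29.9% and 21.6% had such a p. Fau, which encodes a ubiquitin-like protein fused to a 40S protein, had -0.13 (adjusted p 0.718 by edgeR) at day 7.

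The retrocopy that passed the test, Rps3a2, lies at chr14:88123017-88123808 (mm10) on the minus strand. It had 32 to 127 counts per library, while its parent Rps3a1, a 40S protein gene, had 4098 to 10789. The transcripts in GENCODE release 21 are identical at 788 of 792 aligned bases for Rps3a2 and 786 of 795 for Rps3a3. A stretch of 60 bases from the coding part, chosen for the most differences between Rps3a1 and Rps3a2, shows how little separates the copies. Positions at which a copy differs from Rps3a1 are in capitals (in the Rps3a1 line, positions at which either copy differs).
Rps3a1: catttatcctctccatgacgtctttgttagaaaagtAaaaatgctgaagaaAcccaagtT
Rps3a2: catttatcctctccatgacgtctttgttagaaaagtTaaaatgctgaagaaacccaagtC
Rps3a3: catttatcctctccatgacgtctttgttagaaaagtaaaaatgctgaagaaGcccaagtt
In this stretch Rps3a2 differs at 2 positions and Rps3a3 at 1. A read without such a position aligns to several of these loci and was not counted.

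Rps3a2 was measured at 3.92, 5.11 and 3.59 CPM in day 7 WT and 2.98, 2.95 and 1.40 CPM in day 7 KO. All KO libraries were below all WT libraries, and replicate 3 of KO, the library in which 81 of the 85 genes were at their lowest, was the lowest of the 6. The log2 fold change was -0.77 (95% interval -1.3 to -0.24), with an adjusted p of 0.0411 by edgeR. Without that library it was -0.47 (adjusted p 0.177), without replicate 1 of KO -0.90 (0.0573), and without replicate 1 or 2 of WT -0.82 (0.0735) and -0.62 (0.158). A model of the day 7 libraries alone gave -0.78 with an adjusted p of 0.112, so the call depended on these choices. Rps3a1, in the same libraries, had 266, 444 and 253 CPM in WT and 280, 308 and 181 CPM in KO and overlapped. Rps3a2 had 1.47, 1.15 and 1.42 counts per 100 of Rps3a1 in WT and 1.06, 0.956 and 0.771 in KO at day 7. At day 14 the ratios overlapped, with means of 1.03 ± 0.170 in WT and 1.12 ± 0.119 in KO (SD, n = 3).

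Rps3a3 and Rps4l, a copy of Rps4x with 79.8% identity to its transcript, also had negative log2 fold changes at day 7, -0.72 (adjusted p 0.152) and -0.39 (adjusted p 0.0737). The retrocopy Rpl32l went the other way. Its levels were 3.78, 3.96 and 3.85 CPM in day 7 WT and 5.51, 4.81 and 5.41 CPM in day 7 KO, without overlap, and 4.99, 3.59 and 5.14 against 6.06, 5.17 and 5.26 CPM at day 14. The log2 fold change was 0.44 (95% interval 0.06 to 0.82) at day 7, with an adjusted p of 0.107 by edgeR. Rpl32l lies on the same strand inside Map7, a gene of a microtubule-binding protein that had 25.4 counts for each count of Rpl32l, rose by 0.64 on the log2 scale in day 7 KO (adjusted p 0.00704) and correlated with Rpl32l over the 18 libraries (Pearson r = 0.62). The part of intronic reads of Map7 in the counts of Rpl32l was not tested.

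The ratio of a paralog to its parent does not depend on the scaling of a library. At day 7 it was higher in every KO library than in every WT library for each of the 3 tested paralogs. Rpl22l1, whose transcript the protein of its parent Rpl22 is known to restrain, had 34.8, 36.2 and 34.6 counts per 100 of Rpl22 in WT and 51.9, 54.3 and 38.8 in KO. It overlaps Gm33051 on the other strand, which had 0.49 counts for each count of Rpl22l1 (Pearson r = 0.98 over 18 libraries). The part of shared fragments in this ratio was not tested. Rps27l, a known p53 target, had 41.1, 31.9 and 40.2 counts per 100 of Rps27 in WT and 54.6, 48.9 and 46.0 in KO. Rpl7l1, which acts in ribosome assembly rather than in the finished ribosome, had 13.7, 8.96 and 13.1 counts per 100 of Rpl7 in WT and 15.7, 14.4 and 15.7 in KO. These correspond to ratios 1.36, 1.33 and 1.3 times as high in KO.

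With 3 against 3 libraries an exact two-sided permutation test cannot go below 0.1, the value each of these had, and over the 24 ratios tested (8 copies, 3 days) the adjusted value was 0.343. The paralogs' own day 7 log2 fold changes were 0.26 for Rpl22l1, 0.19 for Rps27l and 0.31 for Rpl7l1 and did not pass the test (adjusted p 0.586, 0.670 and 0.242 by edgeR). Without replicate 3 of day 7 KO, Rpl7l1 was called higher, with a log2 fold change of 0.52 (adjusted p 0.0281 by edgeR), 1 of the 85 genes called in that fit, where 19% of all genes were. At day 14 the groups remained without overlap for Rpl22l1, at 38.0, 28.0 and 38.7 counts per 100 of Rpl22 in WT and 42.9, 45.1 and 47.6 in KO, and overlapped for the other two. At day 2 the 3 ratios overlapped. The smallest value that the exact test allows was thus reached at day 7 for all 3 pairs, and it does not pass the threshold.

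**Figure D4:**
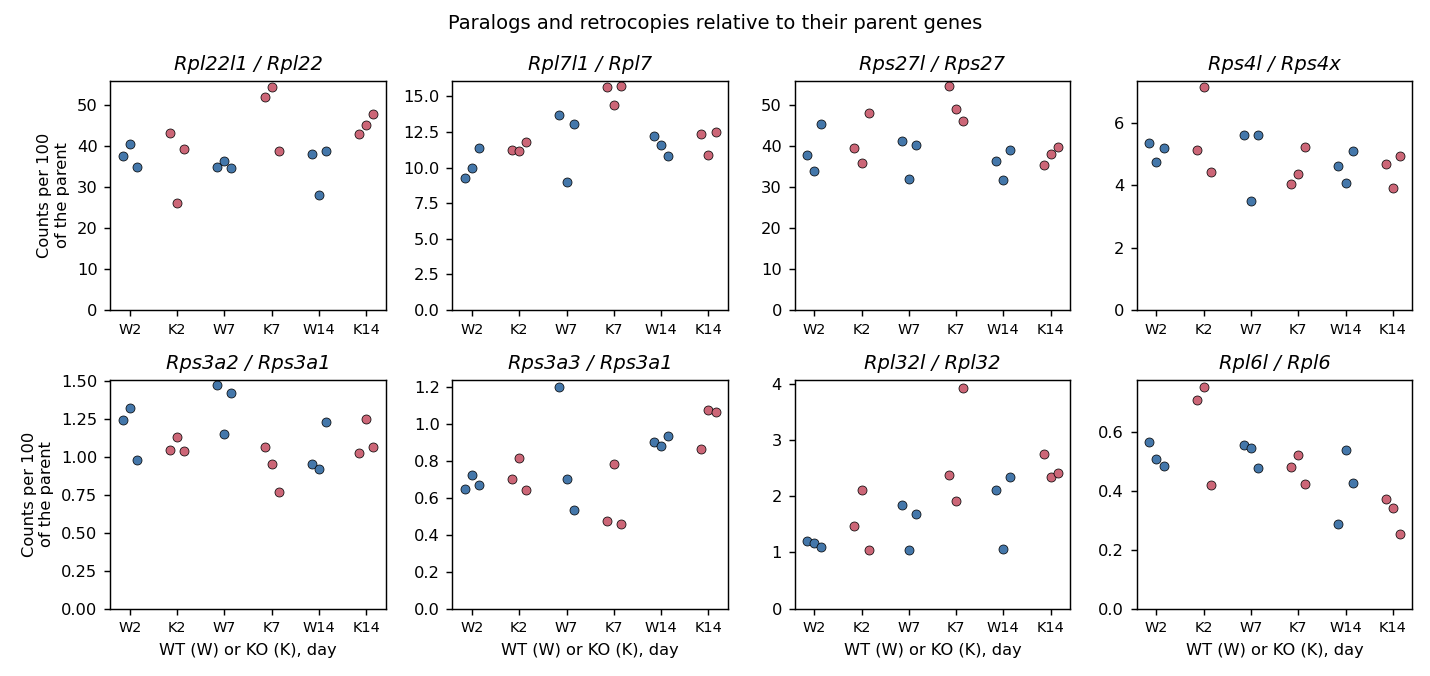
Counts of each tested paralog (Rpl22l1, Rpl7l1, Rps27l) and retrocopy per 100 counts of its parent gene in each library, for WT (blue, W) and KO (red, K) at days 2, 7 and 14. At day 7 the KO points of the 3 paralogs and of Rpl32l lie above all WT points, and those of Rps3a2 below.

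The balance between the subunits varied little. The counts of the 46 genes of 60S proteins were 1.40 to 1.47 times those of the 31 genes of 40S proteins over all 18 libraries. The ratio was 1.42 ± 0.0150 in WT and 1.45 ± 0.0164 in KO at day 2, 1.41 ± 0.00996 and 1.46 ± 0.0115 at day 7, and 1.42 ± 0.00363 and 1.44 ± 0.0175 at day 14 (SD, n = 3 each). On each day the lowest KO library was above the highest WT library, at day 2 by less than 0.001. When each gene was given equal weight, as the difference between the median log2 levels of the 2 subunits, KO stood above WT without overlap at days 2 and 7, and the groups overlapped at day 14. This sum over genes was not given a p-value.

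Single genes were also compared with the median of the set in the same library, which removes the movement common to all of them. Measured in this way, 4 genes were higher and 3 lower without overlap in day 2 KO, 13 higher and 16 lower at day 7, and 13 higher and 15 lower at day 14. Of all genes, measured against the same median, 5.97% were higher and 1.61% lower at day 2, 10.7% and 4.18% at day 7, and 14% and 6.73% at day 14. Subtracting this median takes the shared movement out of the members but adds it to other genes. The shares of all genes given here are therefore not a like background for the members. Rpl13a, known also for a translational role outside the ribosome, was higher on every day, as was 0.454% of all genes, by 0.08, 0.14 and 0.12 on the log2 scale. It was singled out after its values were seen, and its fragments are in part shared with the overlapping Gm45713.

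The second question was how the genes moved with time. In WT, 84 of 85 genes had a lower mean at day 7 than at day 2, with a median log2 fold change of -0.29. In KO it was 82 of 85 and -0.38. Of all genes 48.8% were lower in WT and 51% in KO. In WT 0 genes were called by edgeR or DESeq2, with 3 at an unadjusted p under 0.05, where 0.553% of all genes were called by edgeR, 6.82% by DESeq2 and 22.4% had such a p. In KO 2 were called, both lower, where 16% of all genes were called and 8.8% were called lower. An unadjusted p under 0.05 was found for 27 of the 85 and 30.6% of all genes. The WT median was -0.56 without replicate 2 of day 7, with 57 genes instead of 3 at an unadjusted p under 0.05 (23.7% of all genes in that fit), and -0.14 without replicate 1 of day 7. Without a filter on low counts 19 of the 85 had such a p in WT (14% of all genes). The KO median was -0.15 without replicate 3 of day 7, with 3 genes instead of 27 at such a p (27.1% of all genes). From day 7 to day 14 the medians were 0.03 in WT and 0.04 in KO, and 0 genes were called by edgeR or DESeq2 in either, with 0 and 1 at an unadjusted p under 0.05, where 0.0796% and 0.0468% of all genes were called by edgeR and 5.18% and 9.27% had such a p. These medians also turned on single libraries. The WT value was 0.29 without replicate 2 of day 7 and -0.15 without replicate 2 of day 14, and the KO value was -0.17 without replicate 3 of day 7. Summed marker levels also differed between days 2 and 7. Proliferation genes fell without overlap in WT (1426 to 1655 CPM, then 1178 to 1345 CPM) and in KO (1455 to 1625, then 1028 to 1319 CPM). Enterocyte genes did so in WT alone. In KO, stem cell, Paneth, goblet, tuft and immune genes also fell without overlap, and enteroendocrine genes rose. The part of these lists in the fall of the 85 genes was not tested.

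The 2 genes that fell in KO from day 2 to day 7 were Rpl35, a protein at the tunnel exit, and the retrocopy Rps4l. Rpl35 was measured at 102, 106 and 114 CPM at day 2 and 75.9, 76.2 and 43.3 CPM at day 7, a log2 fold change of -0.72 (adjusted p 0.0264 by edgeR). The groups did not overlap, and without replicate 3 of day 7 the value was -0.48 (adjusted p 0.129). The call was also lost without replicate 1 of day 2 (-0.75, adjusted p 0.0562) and without replicate 3 of day 2 (-0.67, adjusted p 0.0856), all by edgeR. Rps4l was measured at 19, 19.5 and 20.9 CPM at day 2 and 13.1, 14.9 and 10.4 CPM at day 7, a log2 fold change of -0.63 (adjusted p 0.00582), and without replicate 3 of day 7 the value was -0.48 (adjusted p 0.0407). Scaled to the ribosomal protein genes, Rps4l had -0.24 (adjusted p 0.420) and Rpl35 -0.37 (adjusted p 0.131), so both calls were lost. In WT, Rpl35 went from 106, 106 and 104 CPM to 64.0, 109 and 65.6 CPM. Lower values without overlap were found for 28 of 85 genes in KO, where 16.9% of all genes were lower without overlap, and for 4 of 85 in WT, where 14.1% of all genes were. The count of calls in KO depended on the fit. It was 7 by DESeq2, 11 with the replicate number as a block, 15 without a filter on low counts and 3 with a gene length correction. Of all genes 18.1%, 15.1%, 8.45% and 16.2% were called in these fits. Scaled to the ribosomal protein genes the count was 1, Rps16, which was higher at day 7, where 10.2% of all genes were called.

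The difference between the KO effects was tested directly. Between days 7 and 2 and between days 14 and 7, 0 of 85 genes were called by edgeR, 0 by DESeq2 and 0 had an unadjusted p under 0.05, where edgeR called 4.37% and 0% of all genes and 18.1% and 4.46% had such a p. The medians of the difference were -0.10 and 0.03, and with 1 library left out they ran from -0.26 to 0.17 and from -0.26 to 0.19, turning sign. The group with the highest mean was day 2 WT for 59 genes and day 2 KO for 23, and the lowest was day 7 KO for 60. The SD within groups had a median of 0.30 on the log2 CPM scale, against 0.28 for all genes.

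The members moved together from library to library. The median of the 3570 pairwise Pearson correlations of log2 CPM over the 18 libraries was 0.86, and 0.89 after the group means were removed, so the shared movement was also present among mice of 1 group. The same values were 0.61 and 0.71 for 78 mitochondrial ribosomal protein genes and 0.62 and 0.70 for 18 genes of translation factors and other proteins with TOP mRNAs. These points share the libraries and their scaling. The median level of the 85 genes was taken relative to each gene's mean over the WT libraries of all 3 days. It was -0.76 on the log2 scale in replicate 3 of day 7 KO, -0.07 and 0.03 in the other two of that group, and -0.41, 0.34 and -0.28 in day 7 WT. In replicate 3 of day 7 KO the mitochondrial ribosomal protein genes stood at -0.36 and these 18 genes at -0.47. Its 20 most abundant genes took 30.2% of the counts and the mitochondrially encoded genes 11.9%. Both were the highest of the day 2 and day 7 libraries, where the next values were 26.4% and 10.6%. Libraries of day 14 reached 32.9% and 12.7%.

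**Figure D5:**
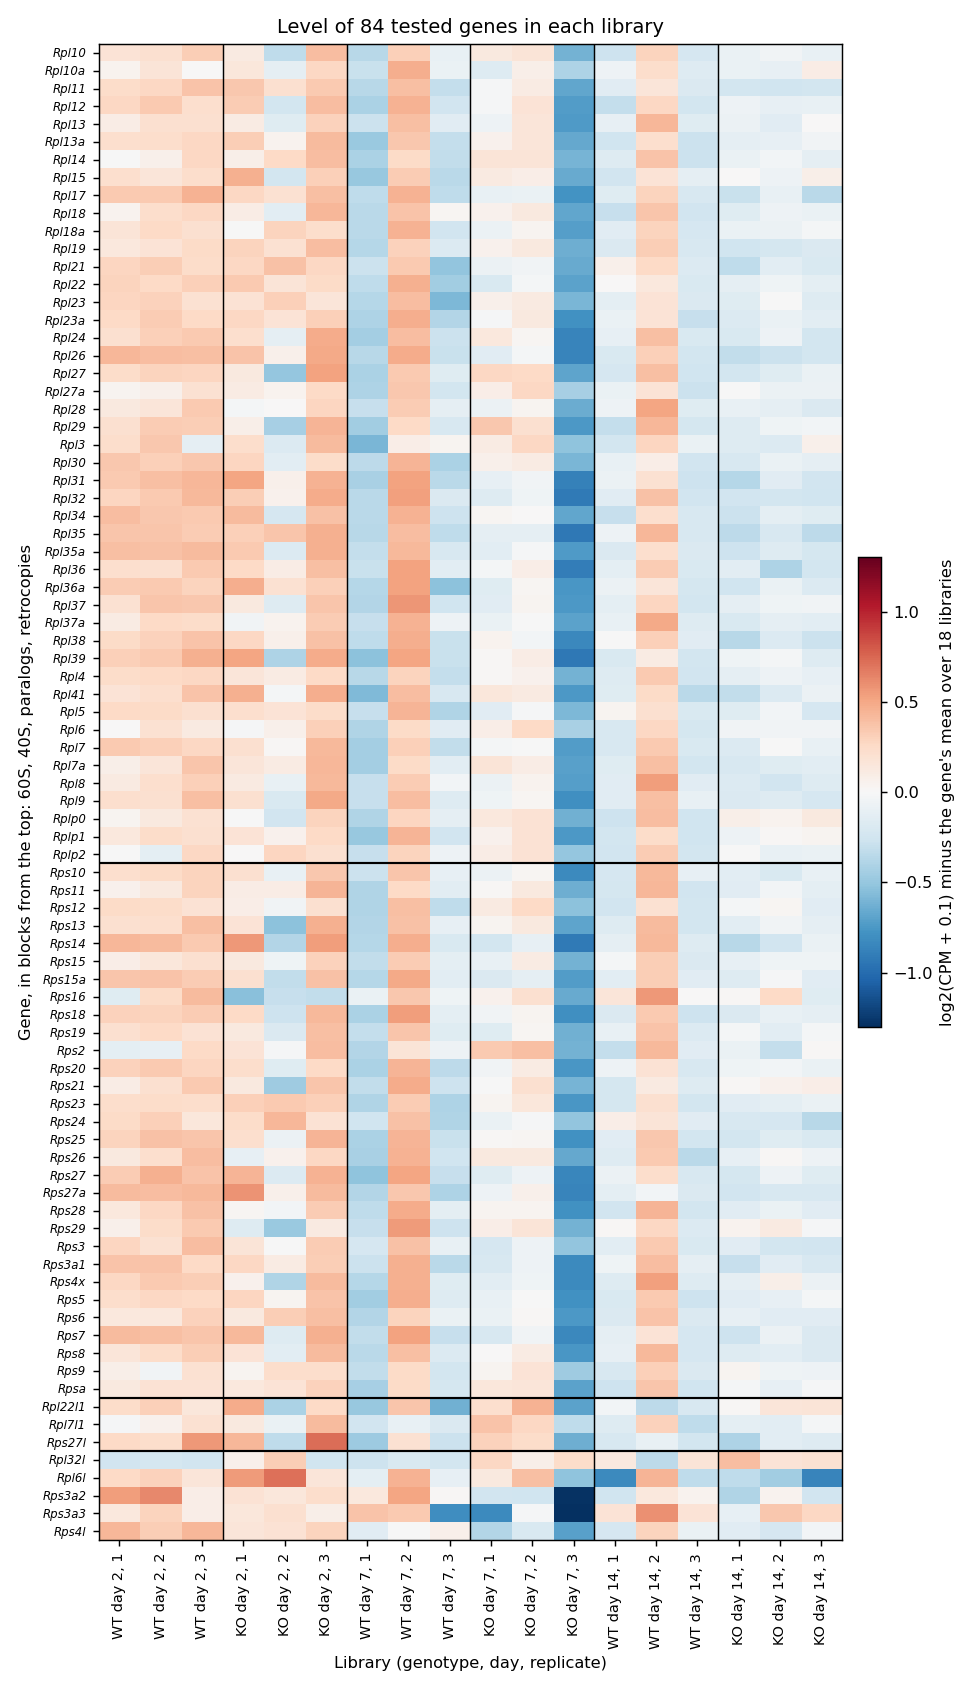
Level of 84 of the 85 tested genes in each library as log2(CPM + 0.1) minus the gene's mean over the 18 libraries, with groups of 3 libraries separated by lines and blocks of 60S, 40S, paralog and retrocopy genes. Whole columns share a color: replicate 3 of day 7 KO is lowest for 81 of 85 genes, and replicate 2 of day 7 WT stands above the other libraries of its group.

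Of the 85 genes, 57 correlated with the median of the 77 standard subunit genes at r over 0.9 (Pearson, 18 libraries), led by Rps25 (0.99). The retrocopy Rpl32l was opposed to it (r = -0.55), and Rps16 had the lowest value of a standard subunit gene (0.46), followed by Rps2 (0.72) and Rpl3 (0.74). Genes outside the set with a closely similar pattern included Gm28037 and Gm45713 (r = 0.99 each with the mean standardized level of the members) and Tlcd1 (0.97). Gm28037 overlaps Rpl24 and Gm45713 overlaps Rpl13a on the same strand, and Tlcd1 overlaps Rpl23a on the other strand. Fragments in an overlap were counted for both genes whatever their strand, so all 3 similarities may rest in part on the same fragments. In all, 51 of the 89 genes overlap another annotated gene, 36 of them on their own strand.

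Other lists of genes that act around the ribosome are given beside the 17.3% of all genes called at day 7 and the 7.92% called at day 14. Of 78 mitochondrial ribosomal protein genes 1 rose at day 7 (Mrps36, log2 fold change 0.71, adjusted p 0.0414) and 1 fell at day 14 (Mrps21, -0.61, adjusted p 0.0351), and their day 7 median was 0.09. Of the 18 genes of translation factors and other proteins with TOP mRNAs 2 rose at day 7, neither of them a translation factor: the RNA-binding protein Hnrnpa1 (0.58, adjusted p 0.00250) and the histone chaperone Nap1l1 (0.55, adjusted p 0.00915), and the median was -0.05. Of 20 initiation factor genes 2 rose at day 7, with a median of 0.23. Of 24 regulators of mTORC1 and of ribosomal protein mRNAs 3 rose and 1 fell at day 7, among them the stress-induced inhibitor Sesn2 (0.80, adjusted p 0.0120) and Deptor, an mTOR-binding inhibitor (-0.82, adjusted p 0.000253), which was also the 1 that fell at day 14 (-0.52, adjusted p 0.0155). Of 16 genes of ribosomal protein chaperones and assembly Wdr12, a 60S assembly factor, rose at day 7 (0.46, adjusted p 0.0176) and day 14 (0.48, adjusted p 0.0255), and Tsr2, the chaperone of Rps26, fell at day 7 (-0.55, adjusted p 0.0211). All of these adjusted p-values are from edgeR.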

How the data were processed

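RNA-Seq libraries of small intestinal crypts from 18 mice were analysed, 3 per genotype and day, with 1 library per mouse. Per the labels and the methods, reads were aligned to mm10 with STAR 2.7.3 and counted with featureCounts 1.6.4. The authors deposited these counts per gene without normalization. The header names GENCODE release 23. Counting ignored strand, gave a fragment to each gene it overlapped, and left out multi-mapping fragments. No column was left unused. Groups were taken from the labels.

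The 20 male- and female-specific genes that the study removed were left out of the tests. Genes were kept with filterByExpr and scaled with TMM. All 18 libraries were fitted with 1 mean per group by edgeR 4.0.16's robust quasi-likelihood method (limma 3.58.1, R 4.3.3), and p-values adjusted by Benjamini-Hochberg were called under 0.05. Log2 CPM used a prior count of 2, and FPKM used the gene model lengths of the table. The fit was first checked on simulated counts holding known fold changes. Sequences were aligned with blastn 2.17.0. Counting error is small at these depths except for the retrocopies, so precision depends on how far the 3 mice of a group vary.

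The members and lists were chosen with earlier results of these data known, so list counts are descriptions. Genes were named if called between KO and WT, by role, as paralog pairs, by highest or lowest FPKM and by largest or smallest spread of group means. Rps16, Rpl32l, Rps25 and Rpl13a were named after their values were seen, as were genes given for non-overlap. Results of some single genes are not reported here. Alternatives were DESeq2 1.42.0's Wald test and size factors, members left out of the scaling and the 20 most abundant genes removed before the fit. Others were no low-count filter, a gene length correction, a fit of only the groups in question, a replicate block and each library left out. Scaling to the members alone was added after the data were seen.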

Additional observations from a re-analysis of the deposited data

How the results depend on the processing

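For KO against WT at day 7, the count of called genes was 0 instead of 1 with only the groups compared and when scaled to the members, and 0 to 3 with 1 library left out (9.43% to 19% of all genes), these being retrocopies except for Rpl7l1, called higher without replicate 3 of KO. For KO at day 7 against day 2 it was 7 instead of 2 with DESeq2's Wald test and 15 with no filter on low counts. It was 11 with the replicate number as a block, 3 with the gene length correction and 1 when scaled to the members. With 1 library left out it was 1 to 9 (10% to 16.2% of all genes). The cause was not tested. The other 7 counts were 0 under every alternative run. Replicate numbers are shared between genotypes in the labels, but the deviations of same-numbered mice correlated at -0.16 to 0.38, not over 0.1 in all 9 pairs, so the block was not used. It changed no other count. The median log2 fold change ranged from -0.16 to 0.05 at day 2, -0.31 to 0.13 at day 7 and -0.21 to 0.06 at day 14 with 1 library left out, which turned its sign. Scaling to the members moved the median of all genes by 0.15 at day 7 and by 0.43 in KO from day 2 to day 7, and Rps16 was then higher in day 7 than in day 2 KO (log2 fold change 0.65, adjusted p 0.0363 by edgeR). For the 38 members named by rule, 1700 of 1710 values over the alternatives kept their side of the threshold. Of the values without a call 172 changed sign. With 3 mice per group, differences under 0.5 on the log2 scale were below what most intervals could show.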
